A study of Mus musculus with 16 samples.

Results

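Kit, Sohlh1, Sohlh2, Dmrt1, Dmrtb1 and Dmrtc2 form a set of 6 regulators of spermatogonial differentiation and of the passage into meiosis. They were chosen by gene symbol, and each had 1 row in all 16 expression files, out of 22293 genes with 1 row. The study compared male mice labelled knockout (KO) with males labelled wildtype (WT), and its title names microRNA-202 (miR-202). All animals carried the strain label C57;ICR. Isolated spermatocytes came from adults and are called SC here (3 KO and 3 WT libraries). Spermatogonial stem cells, called SSC, came from pups of 6 to 7 days post partum and were grown with GDNF and bFGF (3 KO and 3 WT libraries). Isolated spermatogonia, called SG, came from pups of the same age and were not cultured (2 KO and 2 WT libraries). The labels do not describe the deleted allele, the isolation method, or how many animals gave each library. They call the libraries of a group biological replicates without saying which animals they came from, so p-values measure the spread between these libraries.

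KIT is a receptor tyrosine kinase on differentiating spermatogonia, and its ligand comes from Sertoli cells, the somatic nurse cells of the tubule. SOHLH1 and SOHLH2 are basic helix-loop-helix transcription factors of early spermatogonia that act on Kit and on one another and bind E boxes in DNA. The other 3 members carry a DM domain, the zinc-binding DNA-contact module of the sex-determining Doublesex family. DMRT1 keeps spermatogonia mitotic and delays meiosis, DMRT6 (the product of Dmrtb1) acts as spermatogonia leave the mitotic programme, and DMRT7 (the product of Dmrtc2) is needed in pachytene spermatocytes. Dmrtb1 is described as a reported target of miR-202. On GRCm38 Kit lies at chr5:75574916-75656722 and Sohlh2 at chr3:55182028-55209957, both on the plus strand. Dmrt1 lies at chr19:25505618-25604329 and Dmrtc2 at chr7:24870057-24877651, also on the plus strand. Sohlh1 lies at chr2:25842995-25847248 and Dmrtb1 at chr4:107676290-107684230, both on the minus strand. All 6 are protein-coding and no other gene of that annotation overlaps them. DMRT1 is also made in Sertoli cells, and KIT also in mast cells and Leydig cells, so a preparation that holds those cells can contain these transcripts from them.

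The 2 mature arms of miR-202 are shown because a match to their seed (bases 2 to 8, in capitals) is what a direct target site would be searched by. The sequences are RefSeq's, with their positions on GRCm38.p6, minus strand: chr7:139957695-139957716 for the 3p arm and chr7:139957732-139957752 for the 5p arm.
miR-202-3p: aGAGGUAUagcgcaugggaaga
miR-202-5p: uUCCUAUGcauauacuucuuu
The longest annotated 3′ UTR of each gene (GENCODE on GRCm38) was searched for the complement of bases 2 to 8 and for the complement of bases 2 to 7 followed by A. Kit (2177 bases searched), Sohlh1 (162), Sohlh2 (921), Dmrt1 (979) and Dmrtb1 (713) held neither kind of 7-base match to either arm. Dmrtc2 (386 bases) held 1 match of the second kind to miR-202-3p, at bases 18 to 24 after the stop codon. Such a match to miR-202-3p occurred in 9.728% of the 20971 genes with a 3′ UTR. With bases 2 to 7 alone, Dmrtb1 also held 1 match, to miR-202-5p at bases 80 to 85, a kind found in 23.28% of genes. These 2 windows are printed with the matched bases in capitals.
Dmrtc2 window: gcagaggtggaggcTACCTCAct
Dmrtb1 window: catgttcatgttatATAGGAga
A match is a description of the letters only, and coding sequences were not searched.

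The values are FPKM, fragments divided by transcript length and by the number of mapped fragments, as the authors computed them. Because of the division by length, levels of different genes can be set side by side. Each library held 9409 to 11944 genes at 1 FPKM or more, and the lowest correlation between libraries of 1 group was 0.982 to 0.994. Read totals were not given. The spacing of low values put relative depth between 0.711 and 1.05 of that of SG WT replicate 1, the lowest being SG KO replicate 2. Mir202 was listed at 0 in every library, as were 589 of 590 microRNA gene symbols, so these files cannot check the genotype. SG libraries held Sertoli cell RNA: Amh, a Sertoli hormone, stood at 121 and 163 FPKM in KO and at 217 and 152 FPKM in WT, while no SC or SSC library exceeded 1.04 FPKM. They also held Leydig cell RNA, as the sums given with Kit show. The SC libraries fell apart by Insl3, a Leydig cell hormone gene. Insl3 stood at 81.8 and 98.0 FPKM in SC KO replicates 2 and 3 and at 45.0 in SC WT replicate 3. It stood at 10.9 in SC KO replicate 1 and at 8.79 and 12.4 in SC WT replicates 1 and 2. SC libraries also held spermatid RNA: 8 spermatid markers summed to 1440.5 to 5005 FPKM in KO and 2227.7 to 4114.5 FPKM in WT. The part of spermatids in the SC levels of the members was not tested. In such bulk samples, fewer cells of a type and less RNA per cell cannot be told apart.

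**Figure D1:**
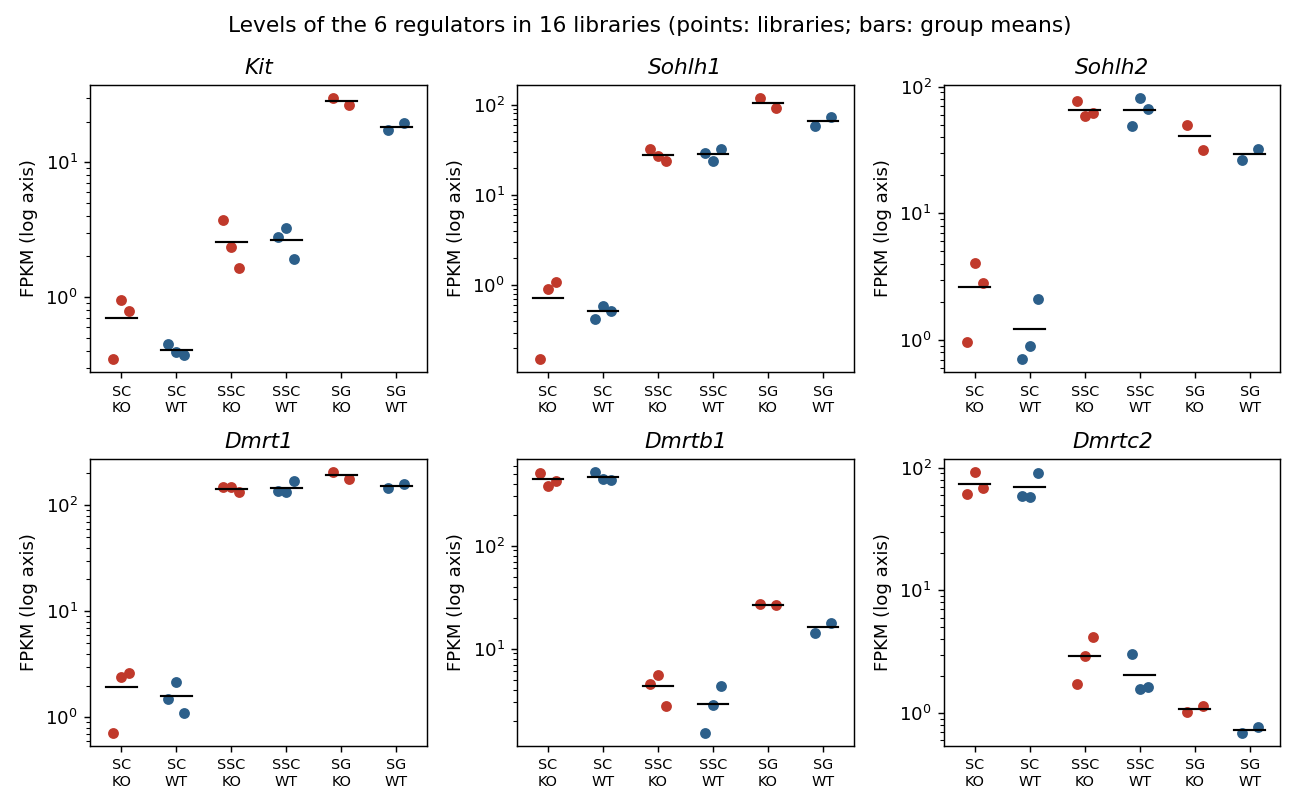
FPKM of the 6 members in each of 16 libraries on log axes, with KO in red, WT in blue and a bar at each group mean. Kit, Sohlh1, Sohlh2 and Dmrt1 were lowest in spermatocytes (SC), where Dmrtb1 and Dmrtc2 were highest.

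Kit, the receptor, was highest in the uncultured spermatogonia. It stood at 0.348, 0.958 and 0.783 FPKM in SC KO libraries and at 0.451, 0.391 and 0.371 in SC WT libraries. It stood at 3.72, 2.34 and 1.66 FPKM in SSC KO libraries and at 2.78, 3.24 and 1.93 in SSC WT libraries. In SG it reached 29.9 and 26.8 FPKM in KO libraries, against 17.2 and 19.5 in WT libraries. Every SG library lay above every SSC library, and every SSC library above every SC library. The share of all genes that keep the cell types apart in this way was not counted. Among WT cells the log2(FPKM + 1) difference of Kit was -3.78 ± 0.22 (SE) for SC against SG, -2.42 ± 0.22 for SSC against SG and -1.36 ± 0.20 for SC against SSC. These differences come from limma fitted over all genes, with adjusted p of 2.74e-10, 5.06e-07 and 1.05e-05. All 6 Leydig cell markers tested were called lower in WT SSC than in WT SG, as were all 9 Sertoli cell markers. The 7 Leydig markers summed to 1.64 to 2.34 FPKM in SSC KO and 3.56 to 6.26 FPKM in SSC WT, and to 203 to 208 FPKM in SG KO and 150 to 235 FPKM in SG WT. In SC, where Kit was lowest, the 7 summed to 12.8 to 113 FPKM in KO and 10.8 to 52.1 FPKM in WT. These SC sums lay above the SSC sums. The part of Leydig cells in the Kit level was not tested. Between these cell types most genes differed: 89% of genes were called in SC against SG, 53.1% in SSC against SG and 90.1% in SC against SSC.

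Sohlh1, the partner transcription factor gene, had the same order of groups at higher levels. It stood at 0.153, 0.917 and 1.08 FPKM in SC KO and at 0.421, 0.596 and 0.525 in SC WT. It stood at 32.6, 26.7 and 24.0 FPKM in SSC KO and at 29.2, 24.0 and 32.5 in SSC WT. SG libraries had 119 and 91.6 FPKM in KO, against 58.3 and 72.4 in WT. The 4 SG libraries were again the highest, but SSC kept a larger part of the SG level than for Kit. Among WT cells its log2 difference was -5.45 ± 0.23 for SC against SG and -1.17 ± 0.23 for SSC against SG (limma, adjusted p = 4.7e-12 and 0.000545).

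The start of the Sohlh1 promoter is shown because it holds 3 copies of 1 E box, the class of site that SOHLH factors bind. It is RefSeq's sequence for chr2:25847419-25847498 on GRCm38.p6, minus strand, from 250 to 171 bases before the transcription start. The E box CACGTG, which reads the same on both strands, is in capitals.
Sohlh1 upstream: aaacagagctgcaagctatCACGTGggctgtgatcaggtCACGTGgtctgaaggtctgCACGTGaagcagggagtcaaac
The 3 boxes begin 231, 211 and 192 bases before the start. At least 1 CACGTG occurred in 6.02% of 32851 promoter windows of 250 bases, and 3 or more occurred in 0.0609% (20 windows). The looser form CANNTG, which includes CACGTG, was found 5 times before Sohlh1. Of all windows, 66.2% held at least 1 CANNTG, 12.2% held 3 or more and 1.15% held 5 or more. CANNTG was found 0 times before Kit and Dmrtc2, 1 time before Sohlh2, and 3 and 2 times before the 2 annotated starts of Dmrtb1. Dmrt1 was not among the promoters searched.

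Sohlh2 differed from Sohlh1 in where it was highest. It stood at 0.963, 4.09 and 2.80 FPKM in SC KO and at 0.709, 0.890 and 2.10 in SC WT. It stood at 77.5, 58.4 and 61.3 FPKM in SSC KO and at 48.6, 81.2 and 66.9 in SSC WT. In SG it stood at 49.7 and 31.7 FPKM in KO and at 26.4 and 32.0 in WT. The SSC libraries held the highest values, with an overlap between 1 SG KO library and the lowest SSC WT library. Among WT cells Sohlh2 was higher in SSC than in SG by 1.12 ± 0.35 on the log2 scale, and its log2 difference for SC against SG was -3.80 ± 0.35 (limma, adjusted p = 0.0151 and 5.37e-08). The call for SSC was lost with a pseudocount of 0.1 (adjusted p = 0.0692), without SG WT replicate 1 (0.11) and without SSC WT replicate 2 (0.0541). The sum of the germ cell genes Ddx4, Dazl, Dnd1 and Mael was 551 to 786 FPKM in SSC WT, against 365 to 403 FPKM in SG WT. The part of the germ cell share in the Sohlh2 difference was not tested.

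The ratio of Sohlh1 to Sohlh2 within a library, which does not depend on how libraries were scaled, set the cultured and uncultured cells apart. Sohlh1 was 0.421, 0.458 and 0.391 times Sohlh2 in SSC KO libraries and 0.600, 0.296 and 0.486 times in SSC WT libraries. It was 2.39 and 2.89 times Sohlh2 in SG KO libraries and 2.20 and 2.26 times in SG WT libraries. Sohlh1 was therefore the more abundant of the pair in all 4 SG libraries and the less abundant in all 6 SSC libraries. In SC, where both were low, the ratio was 0.159 to 0.384 in KO and 0.250 to 0.670 in WT. Kit over Sohlh1 likewise averaged 0.0902 ± 0.0226 in SSC KO, 0.0965 ± 0.0377 in SSC WT (SD, n = 3 each), 0.272 ± 0.028 in SG KO and 0.282 ± 0.018 in SG WT (SD, n = 2 each). The KO and WT ranges of Kit over Sohlh1 overlapped within each of the 3 cell types. Those of Sohlh1 over Sohlh2 overlapped in SC and SSC but not in SG, where both KO libraries were higher. How often ratios of other genes do so was not counted.

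**Figure D2:**
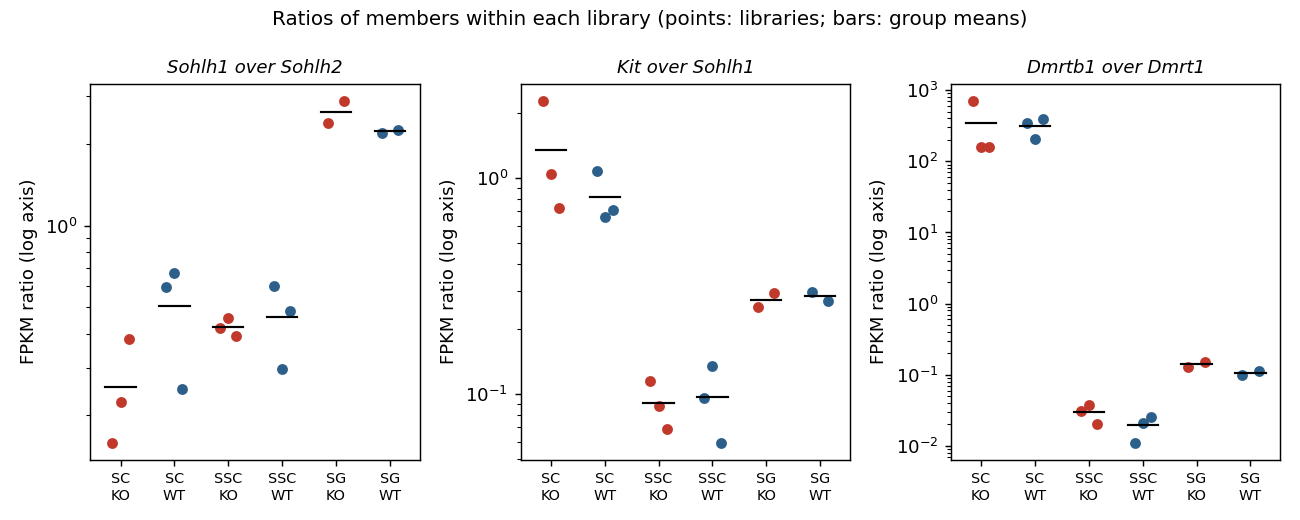
FPKM ratios of 3 pairs of members within each library on log axes, with KO in red, WT in blue and a bar at each group mean. Sohlh1 over Sohlh2 lay above 2 in the 4 SG libraries and below 1 in the other libraries, and Dmrtb1 over Dmrt1 spanned from 0.0111 in an SSC library to 711 in an SC library.

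Dmrt1, which restrains meiotic entry, was low in spermatocytes and far higher in both cultured and uncultured spermatogonia. It stood at 0.717, 2.43 and 2.63 FPKM in SC KO and at 1.49, 2.15 and 1.10 in SC WT. It stood at 148, 149 and 135 FPKM in SSC KO and at 137, 134 and 169 in SSC WT. SG libraries had 207 and 176 FPKM in KO, against 145 and 160 in WT. Its log2 difference of WT SC from WT SG was -5.91 ± 0.26 (limma, adjusted p = 7.53e-12). The difference of WT SSC from WT SG was -0.065, with a 95% interval from -0.61 to 0.48 and adjusted p = 0.851. That of KO SSC from KO SG was -0.41 ± 0.26 (limma, adjusted p = 0.19, or 0.0256 with only those groups fitted). SSC and SG libraries overlapped in WT and not in KO, but the share of all genes doing so was not counted. The KO effect in SSC minus that in SG was -0.34 ± 0.36 (limma, adjusted p = 0.744), so no difference between KO and WT was shown here. In SSC, where Dmrt1 stood at 134 to 169 FPKM, 9 Sertoli cell markers summed to 5.99 to 8.83 FPKM in KO and 8.50 to 10.2 FPKM in WT. In SG these markers summed to 738 to 893 FPKM in KO and 881 to 1274 FPKM in WT. The part of Sertoli cells in the Dmrt1 level was not tested.

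Dmrtb1, the DMRT6 gene, ran opposite to Dmrt1 between spermatogonia and spermatocytes. It stood at 509.8, 382 and 425 FPKM in SC KO and at 522, 443 and 437 in SC WT. It stood at 4.53, 5.60 and 2.75 FPKM in SSC KO and at 1.52, 2.84 and 4.36 in SSC WT. SG libraries had 26.8 and 26.5 FPKM in KO, against 14.2 and 17.9 in WT. The 3 cell types did not overlap, with SC highest and SSC lowest, but the share of all genes without such overlap was not counted. Among WT cells Dmrtb1 was 27.5-fold higher in SC than in SG and 125-fold higher in SC than in SSC, as folds of FPKM + 1 (limma, adjusted p = 1.4e-10 and 4.01e-13). Its log2 difference of WT SSC from WT SG was -2.19 ± 0.27 (adjusted p = 8.41e-06). Dmrtb1 over Dmrt1 within a library was 711, 158 and 161.5 in SC KO libraries, the first standing apart, and 351, 206 and 398 in SC WT libraries. It averaged 0.0295 ± 0.0086 in SSC KO and 0.0194 ± 0.0076 in SSC WT (SD, n = 3 each). It averaged 0.140 ± 0.015 in SG KO and 0.105 ± 0.010 in SG WT (SD, n = 2 each). The KO and WT ranges of Dmrtb1 over Dmrt1 overlapped in SC and SSC. In SG they did not, at 0.129 and 0.150 in KO against 0.098 and 0.112 in WT. How often ratios of other genes do so was not counted.

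Dmrtc2, the DMRT7 gene, was also highest in the SC libraries, at a lower level there than Dmrtb1. It stood at 60.6, 92.7 and 68.4 FPKM in SC KO and at 59.0, 57.8 and 90.8 in SC WT. It stood at 1.72, 2.90 and 4.20 FPKM in SSC KO and at 3.00, 1.56 and 1.62 in SSC WT. In SG it stood at 1.02 and 1.14 FPKM in KO and at 0.691 and 0.765 in WT. Unlike Dmrtb1 it was lowest in SG rather than in SSC. Among WT cells it was 39.7-fold higher in SC than in SG and 22.9-fold higher in SC than in SSC, as folds of FPKM + 1 (limma, adjusted p = 5.99e-11 and 8.69e-11). It was higher in WT SSC than in WT SG by 0.79 ± 0.28 on the log2 scale (adjusted p = 0.0251). This last call was lost without SG WT replicate 1 (0.116), SG WT replicate 2 (0.0834) or SSC WT replicate 1 (0.0956). The germ cell sum given with Sohlh2 was also higher in SSC WT than in SG WT, and its part here was not tested.

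Over the set, 2 members (Dmrtb1 and Dmrtc2) were higher and 4 lower in WT SC than in WT SG, where 33.8% of all genes were higher and 55.2% lower. The same 2 were higher and the same 4 lower in WT SC than in WT SSC (33.2% and 56.9% of genes). In WT SSC against WT SG (30.5% and 22.6% of genes), 2 members were higher (Sohlh2, Dmrtc2) and 3 lower (Kit, Sohlh1, Dmrtb1). That count of 5 calls fell to 3 without SG WT replicate 1. In KO cells, SC against SG (88.2% of genes called, 34.3% higher and 53.9% lower) gave 2 higher and 4 lower members, as did SC against SSC (89.2% called, 33.3% higher and 55.8% lower). KO SSC against KO SG (54.5% called, 32.1% higher and 22.4% lower) gave 1 higher (Dmrtc2, 0.87 ± 0.28 on the log2 scale) and the same 3 lower members. The Dmrtc2 call there was lost without SG KO replicate 1, SG KO replicate 2 or SSC KO replicate 3 (adjusted p = 0.0755, 0.0606 and 0.065). Sohlh2 was at 0.70 ± 0.35 and Dmrt1 at -0.41 ± 0.26 in KO SSC against KO SG (limma, adjusted p = 0.103 and 0.19). Both were called when only the 5 libraries of those groups were fitted (0.0171 and 0.0256).

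The comparison of KO with WT spermatogonia asks whether loss of miR-202 moves the regulators of differentiation at the age when spermatogonia begin it. All 6 members had a higher mean in SG KO, by 0.27 to 0.71 on the log2(FPKM + 1) scale, beside a median of -0.058 over all genes. None of the 6 passed the adjusted threshold of 0.05 in limma with the spread taken over all 16 libraries. At that threshold 6.68% of 11997 genes were called, 0.917% as higher and 5.76% as lower in KO. At an unadjusted p under 0.05 there were 2362 genes, and Kit, Sohlh1 and Dmrtb1 were among them. Dmrtb1 had the largest difference of the 6, 0.71 ± 0.29 (SE, adjusted p = 0.187). Sohlh1 was at 0.67 ± 0.25 (adjusted p = 0.128) and Kit at 0.60 ± 0.25 (adjusted p = 0.179). Sohlh2 was at 0.44 ± 0.38 (adjusted p = 0.61), Dmrt1 at 0.33 ± 0.28 (0.597) and Dmrtc2 at 0.27 ± 0.30 (0.714). Dmrtc2 entered the test only through its 2 KO libraries, which alone reached 1 FPKM in SG.

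Both KO libraries lay above both WT libraries for Kit, Sohlh1, Dmrt1 and Dmrtb1. They did so for Dmrtc2 too, but there the filter on low values, which only its KO libraries passed, fixed that order. For Sohlh2 the lower KO library, at 31.7 FPKM, lay just below the higher WT library, at 32.0 FPKM. Of all genes tested, 21.2% had KO libraries that both lay above the WT libraries, and 56.1% did not overlap in one direction or the other. Dmrtb1 averaged 26.7 ± 0.245 FPKM in KO, against 16.1 ± 2.57 FPKM in WT (SD, n = 2 each).

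The result turned on where the spread was taken from. When only the 4 SG libraries were fitted, the log2 differences were the same and Kit (adjusted p = 0.0172), Sohlh1 (0.0206) and Dmrtb1 (0.00857) were called as higher in KO. That fit called 2.09% of all genes as higher. Quantile normalization called Kit alone (0.77 ± 0.22, adjusted p = 0.0397), with 3.58% of all genes called as higher. It also changed the split of all calls, of which 39.9% were higher against 13.7% as reported. Scaling to 4 germ cell genes (Ddx4, Dazl, Dnd1 and Mael), an alternative chosen after seeing the data, lowered the median of all genes to -0.30, against -0.058 as reported. On that scale Kit was at 0.33, Sohlh1 at 0.40, Sohlh2 at 0.16, Dmrt1 at 0.049, Dmrtb1 at 0.44 and Dmrtc2 at 0.14, and none was called.

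Genes of other cells differed between the same libraries, and their part in the differences of the members was not tested. Of 8 mast cell markers, 5 were tested and 4 were called higher in SG KO (Mcpt4, Cma1, Cpa3 and Tpsb2, which encode mast cell proteases). These 4 reached 1 FPKM in the KO libraries only, so they entered the test through the group where they are high, and the count is no support for a difference. The summed level of the 8 was 15.5 and 21.2 FPKM in SG KO, against 2.08 and 4.51 FPKM in SG WT. Kit is a mast cell gene as well. Of the 8, Mcpt4, Cma1 and Tpsb2 were listed at 0 in SG WT replicate 2, where the sum of the 8 was still at least 2.08 FPKM. Kit stood at 19.5 FPKM in that library, and the part of mast cells in the Kit level was not tested. Of 9 Sertoli cell markers none was called, and their sum was 738 to 893 FPKM in SG KO, against 881 to 1274 FPKM in SG WT, while Dmrt1 had its higher values in KO. Of 7 Leydig cell markers none was called in SG, with sums of 203 to 208 FPKM in KO and 150 to 235 FPKM in WT. Of 7 fibroblast markers 6 fell in SG KO, with sums of 180 to 196 FPKM in KO and 544 to 699 FPKM in WT. Of 7 peritubular myoid markers 5 fell, with sums of 27.0 to 31.1 FPKM in KO and 131 to 180 FPKM in WT. Of 12 pachytene spermatocyte markers, which like Dmrtb1 and Dmrtc2 were higher in SC than in SG, 8 were tested in SG. Their KO estimates were above 0 for 4 and below 0 for 4, with a median of 0.13. Of the 8, 2 were called higher in KO: Ybx2 by 1.08 and Ovol1 by 0.95 on the log2 scale (limma, adjusted p = 0.0043 and 0.000339). The sum of the 12 was 38.2 to 46.7 FPKM in SG KO, against 30.2 to 41.1 FPKM in SG WT. The 8 spermatid markers summed to 8.40 and 94.6 FPKM in SG KO, the high value being that of replicate 2, against 7.07 and 10.04 FPKM in SG WT, and none of the 4 tested was called. The 4 germ cell genes summed to 389 and 512 FPKM in SG KO, against 365 and 403 FPKM in SG WT, so that the groups overlapped.

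**Figure D3:**
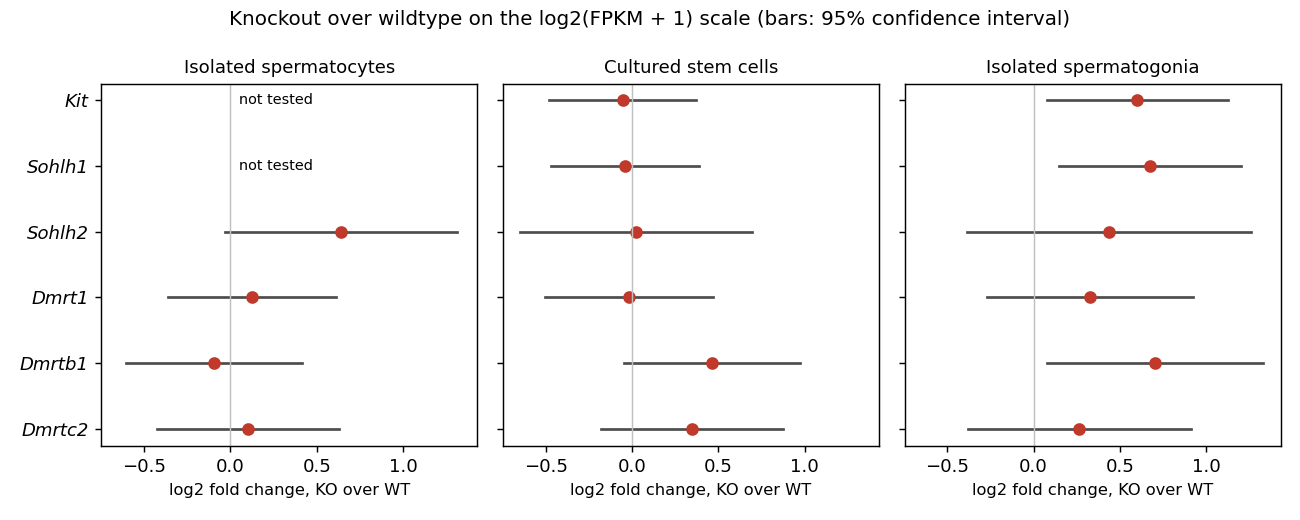
Log2 fold change of KO over WT on the log2(FPKM + 1) scale for the 6 members in spermatocytes, cultured stem cells and spermatogonia, with 95% confidence intervals from limma. In spermatogonia all 6 estimates lay above 0, that of Dmrtc2 through the filter on low values, and the unadjusted intervals of Kit, Sohlh1 and Dmrtb1 left out 0, but no member passed after adjustment over all genes.

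In cultured stem cells none of the 6 members was called between KO and WT, where 6.17% of 12046 genes were called and 2004 genes had an unadjusted p under 0.05. Kit was at -0.055, Sohlh1 at -0.040, Sohlh2 at 0.023 and Dmrt1 at -0.017 on the log2 scale, and the KO and WT libraries of all 4 overlapped. Of all genes tested, 18.3% did not overlap in SSC. Their 95% intervals ran at most from -0.65 to 0.69, the widest being that of Sohlh2. Dmrtb1 was at 0.47 ± 0.24 (limma, adjusted p = 0.358) and Dmrtc2 at 0.34 ± 0.25 (0.533), at levels of 1.52 to 5.60 FPKM and with overlapping libraries. Beside these values, fibroblast markers summed to 98.5 to 193 FPKM in SSC KO and 313 to 542 FPKM in SSC WT.

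In spermatocytes only 4 members reached the filter of 1 FPKM in 2 libraries. None of these was called, where 1 gene of 10271 was called (0.00974%) and 418 genes had an unadjusted p under 0.05. Dmrtb1, the most abundant member, was at -0.096 with a 95% interval from -0.61 to 0.41, and Dmrtc2 was at 0.10 with an interval from -0.42 to 0.63. Dmrt1 was at 0.13 ± 0.23. Sohlh2 had the largest difference, 0.64 ± 0.31 (limma, adjusted p = 0.999), which ran from 0.34 without SC KO replicate 2 to 1.03 without SC KO replicate 1.

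Among the SC libraries, Sohlh2 and Dmrtc2 varied together with Insl3. The KO comparison was therefore repeated within each set of libraries, an alternative chosen after seeing the data. Sohlh2 stood at 4.09, 2.80 and 2.10 FPKM in the 3 libraries with Insl3 of 20 FPKM or more (2 KO and 1 WT), against 0.963, 0.709 and 0.890 FPKM in the other 3 (1 KO and 2 WT). Dmrtc2 stood at 92.7, 68.4 and 90.8 FPKM in the first 3 and at 60.6, 59.0 and 57.8 FPKM in the other 3. The sets did not overlap for either gene, but Sohlh2 reached 1 FPKM only in the first 3 and entered the test through them. Dmrtb1 stood at 382, 425 and 437 FPKM in the first 3 and at 509.8, 522 and 443 FPKM in the other 3, without overlap and in the opposite direction. Of 10271 genes tested in SC, 29% did not overlap between the sets, 22.1% being higher and 6.87% lower in the set of high Insl3. The 3 members were singled out after their values were seen, and the pattern is not particular to them. These sets were defined by a marker and not by the study, and no test was made between them. Each set leaves 1 arm with a single library, which is assumed to vary like the other groups. Within the set of low Insl3, KO against WT was -0.70 for Dmrt1, 0.083 for Dmrtb1 and 0.053 for Dmrtc2 on the log2 scale, and Sohlh2 was not tested. Within the set of high Insl3 it was 0.51 ± 0.33 for Sohlh2, 0.75 for Dmrt1, -0.12 for Dmrtb1 and -0.19 for Dmrtc2. No member was called in either set.

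**Figure D4:**
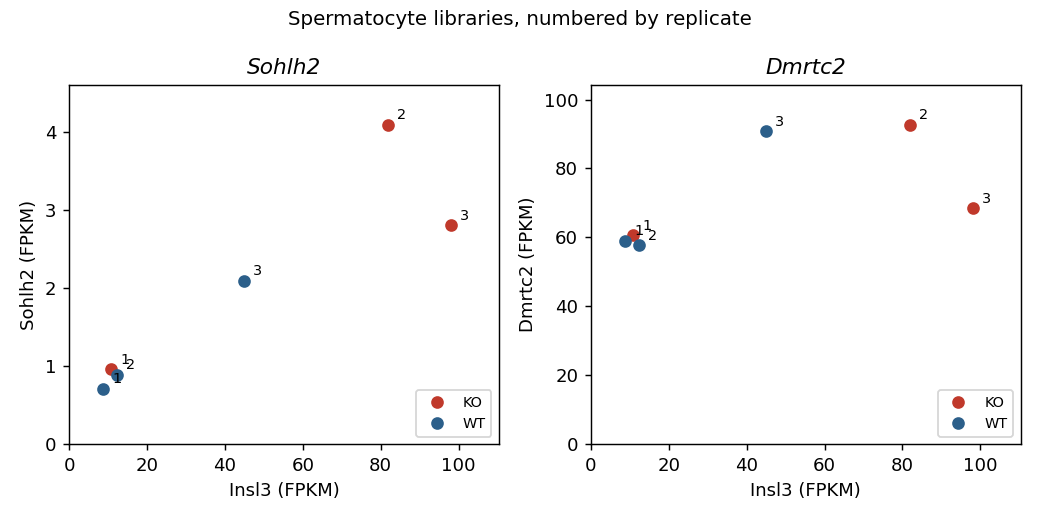
FPKM of Sohlh2 and Dmrtc2 against FPKM of Insl3 in the 6 spermatocyte libraries, with KO in red, WT in blue and the replicate number beside each point. The 3 libraries with Insl3 of 45.0 FPKM or more held the 3 highest values of both genes, as they did for 22.1% of all genes tested.

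The difference of the KO effect between cell types was tested directly, and none of the 6 members was called in any of the 3 differences. The shares of genes called were 2.14% for SC against SG, 1.81% for SSC against SG and 2.02% for SC against SSC, and 1905, 1752 and 1372 genes had an unadjusted p under 0.05. The smallest p among the members was for Sohlh1, whose KO effect in SSC minus that in SG was -0.71 ± 0.32 on the log2 scale (limma, adjusted p = 0.337). For Dmrtb1 the KO effect in SC minus that in SG was -0.80 ± 0.38 (adjusted p = 0.366). The higher SG KO means of the members are thus not shown to be particular to spermatogonia.

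Genes around these regulators were counted from lists that carry the same roles. Kitl, which encodes the KIT ligand, stood at 25.0 and 28.6 FPKM in SG KO, against 28.8 and 55.4 FPKM in SG WT, a log2 difference of -0.56 (limma, adjusted p = 0.24). In SSC it stood at 0.379 to 0.862 FPKM in KO and 1.38 to 1.92 FPKM in WT, at -0.66 (adjusted p = 0.0851). Of the 21 genes of KIT ligand and signalling, 20 were tested in SG, 17 in SC and 21 in SSC, and none was called in any of them. The smallest p-values in SG belonged to 3 subunits of the phosphoinositide 3-kinase and to Kitl, with Pik3r2 at 0.46, Pik3ca at -0.29 and Pik3r1 at -0.39 (adjusted p = 0.215, 0.22 and 0.252). The median of the list was -0.17 in SG, beside -0.058 over all genes.

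The E proteins, with which SOHLH factors can pair, and the Id proteins, which block such pairing, had 3 or more calls in both SG and SSC. In SG, 3 of 7 fell in KO and none rose, where 5.76% of all genes were called lower, with a list median of -0.45 beside -0.058 over all genes. Id1 stood at 13.0 and 19.6 FPKM in SG KO, against 32.7 and 73.3 FPKM in SG WT (log2 difference -1.56 ± 0.30, limma, adjusted p = 0.00534). Id3 stood at 41.8 and 49.3 FPKM in SG KO, against 70.3 and 105 FPKM in SG WT (-0.90, adjusted p = 0.0472). Tcf4 was at -0.87 (adjusted p = 0.00101), while the more abundant E protein genes Tcf3 and Tcf12 averaged 96.1 ± 5.57 and 29.4 ± 2.26 FPKM in SG KO, against 71.0 ± 6.68 and 29.9 ± 1.08 FPKM in SG WT (SD, n = 2 each). In SSC, where 5.84% of all genes were called lower, 4 of 7 fell in KO: Id1 by 1.12, Id2 by 1.18, Id3 by 1.10 and Tcf4 by 0.44 on the log2 scale. None of the 4 genes tested in SC was called. With 1 library left out, 1 or 2 of the 7 were called in SG and 3 or 4 in SSC. The Id genes and Tcf4 are also expressed in stromal cells, and the fibroblast and myoid sums given above fell in the same libraries. That was not tested as a source.

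Of 14 other genes of differentiating spermatogonia, 1 rose in SG KO, where 0.917% of all genes were called higher. It was Dnmt3b, a DNA methyltransferase gene, at 29.3 and 35.7 FPKM in KO, against 19.5 and 20.9 FPKM in WT (0.65 ± 0.17, limma, adjusted p = 0.0325). With any 1 of the 4 SG libraries left out, 0 genes of the list were called. The list median was 0.46, beside -0.058 over all genes, with 11 of 14 estimates above 0. Stra8, the retinoic acid target needed for meiotic entry, stood at 38.7 and 60.8 FPKM in SG KO and at 33.1 and 45.8 FPKM in SG WT, and was not called. In SSC 1 of 14 was called, Crabp1, which fell by 1.34. In SC 6 were tested and none was called. None of 14 tested genes of meiotic entry and prophase was called in SG. Their median there was 0.32, beside -0.058 over all genes, with 13 estimates above 0. Stra8 is on both lists, and the share of all genes with an estimate above 0 was not counted. Scaling to germ cell genes lowered the SG median of all genes to -0.30, and the list medians were not recomputed on that scale. None was called in SC (17 tested) or SSC (15 tested).

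Of 20 genes of undifferentiated spermatogonia, 14 were tested in SG and none was called, with a median of -0.19 beside -0.058 over all genes. In SSC 18 were tested, with a median of 0.32 beside -0.017 over all genes. Of these, 1 was called: Thy1, which fell by 1.56 in KO and is also a stromal gene. The 3 tested in SC gave no call.

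Of the other genes of the DM domain family none was called between KO and WT in any cell type (4 tested in SG, 2 in SC and 4 in SSC). With 1 library left out, up to 1 was called in SG. Dmrt3 averaged 14.9 FPKM in SSC KO and 14.4 FPKM in SSC WT, and 4.89 FPKM in SG KO and 3.20 FPKM in SG WT. Dmrta1 averaged 3.85 FPKM in SG KO and 6.11 FPKM in SG WT, a log2 difference of -0.53 (limma, adjusted p = 0.0886), and Dmrtc1a averaged 7.72 FPKM in SG KO and 5.18 FPKM in SG WT. Dmrt2, Dmrta2 and Dmrtc1b stayed at or under 2.68 FPKM in every group mean.

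The genes most like each member were taken as those with the highest Pearson correlation of log2(FPKM + 1) over the 16 libraries, which share 3 cell types, so the values describe the cell types more than the members. For Kit they were Cdc42ep1, Kcnt1 and Txnip (0.990 to 0.988), and 230 of 12964 genes reached 0.95. For Sohlh1 they included Tmem20 and Ndrg4 (both 0.996), with 1612 genes at 0.95 or more. For Sohlh2 they were Dph2, Fbxo18 and Dazl (0.996 to 0.995), Dazl being a germ cell RNA-binding protein gene. For Dmrt1 they were Gsr, Siah1b and Taf7l (0.999 to 0.998), and 2953 genes reached 0.95, the most of any member. For Dmrtb1 they were Inpp5k, Crybg3 and Msl1 (0.995 to 0.994), with 685 genes at 0.95 or more. For Dmrtc2 they were Abcc3, Wdr60 and Oit1 (0.996). Among members the highest correlation was between Sohlh1 and Dmrt1 (0.975) and the lowest between Dmrt1 and Dmrtc2 (-0.981). The weakest were those of Kit with Dmrtb1 (-0.465) and with Sohlh2 (0.598).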

How the data were processed

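RNA was sequenced in 16 libraries. Per the labels' protocols, TRIzol extracts went into strand-marking NEBNext Ultra libraries, read on a HiSeq-X10. The authors deposited FPKM values, 1 per gene symbol and library, and build mm9, Cufflinks 2.0.2 and TopHat2 2.0.6 are listed in the submitters' processing notes, without settings. Read totals are not given in the sources used here, and the spacing of low values yields relative depth alone, so counting intervals were left out. Each file held 23021 rows, and 259 symbols with more than 1 row (728 rows) were left out. All tests used log2(FPKM + 1), a scale that shrinks changes of low genes, in limma 3.58.1 (R 4.3.3): 1 mean per group, all 16 libraries sharing the spread, moderated with a trend on level, two-sided, Benjamini-Hochberg adjustment within each comparison. Genes needed 1 FPKM in at least 2 libraries of the cell types compared, and the adjusted threshold was 0.05. On simulated data with 100 genes changed by 1 and 100 by 2 on the log2 scale, KO against WT recovered 73, 88 and 82 of the first in SG (12048 genes tested), SC (10202) and SSC (12064), and all 100 of the second. False calls were 8.47%, 8.29% and 10.3% of calls, above the nominal 5%. The changed genes were drawn from those averaging at least 5 FPKM in the WT group, with noise independent between genes. Recovery of lower genes, or of changes smaller than 1, was not simulated, so these shares do not give the power for the members. Alternatives were another pseudocount (0.1), filter (none, or 5 FPKM), scaling, spread, replicate block, and leaving out each library.

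The members and gene lists were chosen with earlier results of these data known. Genes named were the members, the 3 most correlated genes of each (1 of those of Sohlh1 is not reported here), and in each list those called and up to 4 of smallest p, with the markers that describe a cell type. Sequences came from RefSeq (GRCm38.p6) and GENCODE (GRCm38) and were matched by symbol. Sample numbers in some tables' inner names differed from the titles, and the record of which sample each file belongs to was followed.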

Additional observations from a re-analysis of the deposited data

How the results depend on the processing

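Over the members, 992 of the recomputed values kept their direction and their side of the threshold, 9 lost a call, 6 gained one, and 36 changed direction, none of them called. In spermatogonia, quantile normalization called 1 member between KO and WT, only the groups compared called 3, and leaving out 1 library called 0 throughout. For WT SSC against WT SG, the 5 calls ranged from 3 to 5 with 1 library left out. Each member was highest in the same cell type (6 of 6) with median-ratio scaling and with each library left out. Median-ratio scaling multiplied group means by 0.753 to 1.49 and moved 22 of 36 by more than 1 SD. Matching bases 2 to 7 alone gave 2 members with a miR-202 match, against 1.

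The changes of direction were these log2 differences. With quantile normalization, Dmrtb1 was at 0.013 in SC, Kit at 0.071 and Dmrt1 at 0.11 in SSC, and the Dmrt1 difference of effects between SC and SSC at -0.030. Median-ratio scaling gave 0.023 for Dmrt1 in SSC. A pseudocount of 0.1 gave -0.041 for the Dmrtc2 difference of effects between SSC and SG. Germ cell scaling gave -0.048 for Dmrt1 and -0.14 for Dmrtc2 in SC, and -0.15 for Sohlh2 in SSC. Without the SC libraries of high Insl3, Dmrt1 was at -0.70 and Dmrtb1 at 0.083, and without those of low Insl3 Dmrtc2 was at -0.19. With 1 library left out, KO against WT in SC ran from -0.068 to 0.47 for Dmrt1 and from -0.070 to 0.31 for Dmrtc2. In SSC it ran from -0.28 to 0.14 for Kit, from -0.16 to 0.057 for Sohlh1, from -0.17 to 0.19 for Sohlh2 and from -0.079 to 0.088 for Dmrt1. Differences of effects ran, for SC against SG, from -0.11 to 0.59 (Sohlh2), from -0.39 to 0.15 (Dmrt1) and from -0.34 to 0.046 (Dmrtc2), for SSC against SG from -0.52 to 0.021 (Dmrtb1) and from -0.15 to 0.32 (Dmrtc2), and for SC against SSC from -0.051 to 0.49 (Dmrt1). Dmrt1 in WT SSC against WT SG ran from -0.17 to 0.00496. The cause was not tested. Without a change of sign, KO against WT with 1 library left out ran in SG from 0.52 to 0.69 (Kit), 0.49 to 0.86 (Sohlh1), 0.12 to 0.75 (Sohlh2), 0.21 to 0.44 (Dmrt1), 0.55 to 0.86 (Dmrtb1) and 0.23 to 0.30 (Dmrtc2). In SC it ran from 0.34 to 1.03 (Sohlh2) and from -0.21 to -0.0018 (Dmrtb1), and in SSC from 0.18 to 0.73 (Dmrtb1) and from 0.12 to 0.59 (Dmrtc2).

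Calls over all genes ranged from 191 to 1495 in SG (801 as reported), from 0 to 372 in SC (1) and from 255 to 1023 in SSC (743). The cause was not tested. Germ cell scaling moved the median of all genes to -0.23 in SC and -0.17 in SSC. In SG, the 3 calls among E and Id proteins ranged from 1 to 4 and the single call of Dnmt3b's list from 0 to 4. In SSC the 4 calls of E and Id proteins ranged from 0 to 4 and the single call of Thy1's list from 1 to 3.

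Deviations from the group mean were compared between KO and WT libraries. Same-numbered ones correlated at -0.12 in SG, 0.25, -0.32 and -0.17 in SC, and -0.002, -0.065 and 0.22 in SSC. With 2 libraries a group, the other-numbered value in SG is 0.12 by construction. The highest other-numbered values were 0.36 in SC, for KO 2 with WT 3 and KO 3 with WT 2, and 0.29 in SSC. The numbers thus gave no steady pairing, and another pairing was fitted in SG only. With a replicate block 0 members were called between KO and WT in every cell type, and 6, 5, 6, 6, 4 and 6 in the cell type comparisons, as without it. Over all genes the block called 598 in SG, and crossing the 2 numbers there called 782. The lack of counts limits the low members: Kit and Sohlh1 in SC, and Dmrtc2 in SG.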
